A study of Mus musculus with 6 samples.

Results

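Aqp4, Gja1 and 6 partner genes were followed on 6 single-colour CodeLink mouse arrays. Aqp4 encodes the water channel of astroglial endfeet and Gja1 the main connexin of astrocyte gap junctions. A gene's probes were taken by rule, as the gene probes whose single symbol in the platform annotation is on the list of 8. The rule found 7 of the 34967 gene probes, covering 6 of the 8 genes and of the 18069 genes that a single symbol names: Aqp4 with 2 probes, and Gja1, Gjb2, Gjc1, Atp1b2 and Dag1 with 1 each. Gjb6 and Kcnj10 have no probe with a platform symbol. The scanner output describes 1 probe for each of these 2 genes, and their values are given beside the members and left out of the member counts. The list was chosen with the difference between the groups of these same arrays in view, so the members' differences are a description and carry no test.

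All 6 samples were neurospheres, floating clusters of precursor cells, grown from the dorsal telencephalon of C57BL/6 mouse fetuses at embryonic day 12.5. The medium was serum-free and held bFGF and human EGF (20 ng/ml each), LIF (0.15 ng/ml), heparin, progesterone (20 nM) and an insulin supplement. Control cultures (3 samples) received a 2'-O-methyl modified nonsense oligonucleotide labelled EGFP, and anti-miR-335 cultures (3 samples) a 2'-O-methyl modified antisense oligonucleotide to the microRNA miR-335, so both groups were transfected. The labels give 24 as the length of treatment without a unit, do not say how many fetuses were pooled, and do not say what was repeated for each independent replicate, so the spread between samples may be technical. No microRNA level was analysed, and the block of miR-335 has no check here.

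These proteins form the transport machinery of astroglia. Connexins assemble into gap junctions through which ions and small molecules pass between neighbouring astroglia, Aqp4 lets water cross the membrane, and Kcnj10 clears extracellular potassium. Dystroglycan, the product of Dag1, holds Aqp4 and Kcnj10 at endfeet through the dystrophin complex, and Atp1b2 is a glial beta subunit of the sodium pump. In the embryonic cortex radial glia already carry Gja1, while Aqp4, Gjb6 and Kcnj10 are known mainly from maturing astrocytes.

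The sequence that the antisense oligonucleotide was directed at is shown because it defines the comparison. The mature arms of mouse miR-335 from RefSeq (build GRCm38.p6, plus strand) are printed with the seed, bases 2 to 8, in capitals. The 5p arm lies at chr6:30741314-30741336 and the 3p arm at chr6:30741354-30741375, inside the span of the Mest gene. The labels do not say which arm was targeted.
mmu-miR-335-5p: uCAAGAGCaauaacgaaaaaugu
mmu-miR-335-3p: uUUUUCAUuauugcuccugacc
Of 1738 mature mouse entries in the same table, 1, miR-335-5p itself, has the seed of the 5p arm. Matches of this seed in the members' transcripts were not analysed here.

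RefSeq promoter windows of the same build, from 250 bases before to 50 bases after the start, were searched for 5 of the 8 genes (Gja1, Gjb2, Gjb6, Kcnj10 and Dag1). Windows of Aqp4, Gjc1 and Atp1b2 were not searched. The windows of the 3 astrocyte connexin genes are printed because Gja1 differed between the groups while Gjb2 and Gjb6 overlapped. Each window was searched on both strands for TGANTCA, the motif of AP-1 factors, for TTCNNNGAA, that of STAT factors, for GGGCGG, that of Sp1, and for the core promoter motif TATAAA. Matches are in capitals, and none of them overlapped another. The windows are chr10:56377050-56377349 on the plus strand for Gja1, and chr14:57104653-57104952 and chr14:57133562-57133861 on the minus strand for Gjb2 and Gjb6.
Gja1: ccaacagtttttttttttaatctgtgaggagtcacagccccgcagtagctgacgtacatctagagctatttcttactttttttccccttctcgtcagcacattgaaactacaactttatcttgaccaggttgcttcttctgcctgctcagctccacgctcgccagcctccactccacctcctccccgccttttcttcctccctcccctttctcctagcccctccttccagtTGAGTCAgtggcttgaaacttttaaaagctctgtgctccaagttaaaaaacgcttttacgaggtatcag
Gjb2: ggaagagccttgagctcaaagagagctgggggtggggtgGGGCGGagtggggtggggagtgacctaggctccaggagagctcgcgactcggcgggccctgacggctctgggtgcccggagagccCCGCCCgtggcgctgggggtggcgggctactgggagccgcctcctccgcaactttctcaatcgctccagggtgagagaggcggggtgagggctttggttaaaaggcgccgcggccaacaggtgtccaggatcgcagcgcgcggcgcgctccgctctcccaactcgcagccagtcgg
Gjb6: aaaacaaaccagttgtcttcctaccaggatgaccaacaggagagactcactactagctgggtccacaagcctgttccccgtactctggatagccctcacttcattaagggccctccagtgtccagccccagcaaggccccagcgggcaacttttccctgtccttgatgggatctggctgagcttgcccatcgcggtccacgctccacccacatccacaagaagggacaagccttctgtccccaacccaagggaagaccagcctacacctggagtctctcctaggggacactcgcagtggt
The Gja1 window held 1 TGANTCA match, TGAGTCA at bases -19 to -13 from the start, a motif found in 7.81% of all 32851 windows of this length. The Gjb2 window held 2 GGGCGG matches, a motif found in 35.7% of windows, and the Gjb6 window held none of the 4 motifs. TTCNNNGAA (8.30% of windows) and TATAAA (13.6%) were found in none of the 3. Bases G and C made up 47.7% of the Gja1 window, 70.0% of the Gjb2 window and 57.3% of the Gjb6 window, against a median of 52.7% over all windows. Of the windows not printed, that of Kcnj10 held 3 GGGCGG matches and the 2 of Dag1 held 4 and 3. A match is a description of letters, not a binding site.

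Intensities are linear, background-subtracted and divided by each array's median, so 1 is the brightness of the median spot. A probe counted as above background where it passed a limit set from each array's negative control spots (their median plus 3 MAD, scaled to an SD), which lay between 0.492 and 0.692 on the 6 arrays. Of the 7 member probes, 6 were above background on all 6 arrays and 1, Dag1, on none. Over the 17843 probes above background on every array, control replicate 1 correlated less with the other controls (r = 0.980 and 0.973) than those did with each other (r = 0.993). Its correlations with anti-miR-335 replicates 1, 2 and 3 were higher than with either control, at 0.983, 0.983 and 0.985. By limma on all 6 arrays, 0 of 34847 probes (0%) passed an adjusted p of 0.05, 3162 had an unadjusted p under 0.05, and 0 of the 7 member probes passed. Without control replicate 1, 1100 of 34654 probes passed (3.17%), among them the brighter Aqp4 probe and the Gja1 probe, 2 of the 7. The contrast is the one the members were chosen on, and nothing is read from those 2. Each member's difference is therefore given with and without that array.

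Aqp4 was brighter in every anti-miR-335 culture than in any control, on both of its probes. On the brighter probe the control replicates 1, 2 and 3 read 11.5, 10.04 and 9.85, and the anti-miR-335 replicates 15.0, 17.9 and 17.9. The lowest anti-miR-335 array thus lay above the highest control, and control replicate 1 was the control nearest to the treated group. The means were 16.9 ± 1.67 (SD, n = 3) and 10.5 ± 0.908 (SD, n = 3), a ratio of 1.62 and a log2 difference of 0.69 ± 0.11 (SE), or 0.76 ± 0.10 without control replicate 1. The second Aqp4 probe read 5.09, 5.23 and 5.25 in the controls and 7.23, 6.28 and 9.54 in the anti-miR-335 cultures. Its controls lay within a narrow band, with a coefficient of variation of 1.66%, while the treated arrays spread over 21.9%. Its log2 difference was 0.54 ± 0.15 (SE), or 0.53 ± 0.15 without control replicate 1. The platform table names this probe from an Aqp4 RefSeq transcript and the brighter one from a cDNA sequence tag.

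Both Aqp4 probes separated the groups but ranked the treated cultures differently. Replicate 2 was among the highest on the brighter probe and the lowest of the 3 on the second probe. The ratio of the brighter to the second probe was 2.26, 1.92 and 1.88 in the controls and 2.08, 2.85 and 1.88 in anti-miR-335 replicates 1, 2 and 3, so replicate 2 carried the largest disagreement. Over the 6 arrays the log2 values of both probes correlated at r = 0.81, which the group difference fixes in large part. Once each group's mean was removed, r was 0.09 over the same 6 arrays.

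Gja1 had the largest difference of the members. Its probe read 6.27, 7.17 and 4.37 in control replicates 1, 2 and 3, and 15.3, 15.8 and 8.49 in the anti-miR-335 replicates. The groups did not overlap, but anti-miR-335 replicate 3 stood much nearer to the highest control than to the other treated cultures. The means were 13.2 ± 4.097 (SD, n = 3) and 5.94 ± 1.43 (SD, n = 3), a ratio of 2.22. The log2 difference was 1.13 ± 0.24 (SE), and 1.18 ± 0.27 without control replicate 1. It ranged from 0.92, without control replicate 3, to 1.42, without anti-miR-335 replicate 3. Relative to control replicates 2 and 3, anti-miR-335 replicates 1, 2 and 3 lay 1.45, 1.497 and 0.60 higher on the log2 scale, and control replicate 1 lay 0.16 higher.

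**Figure D1:**
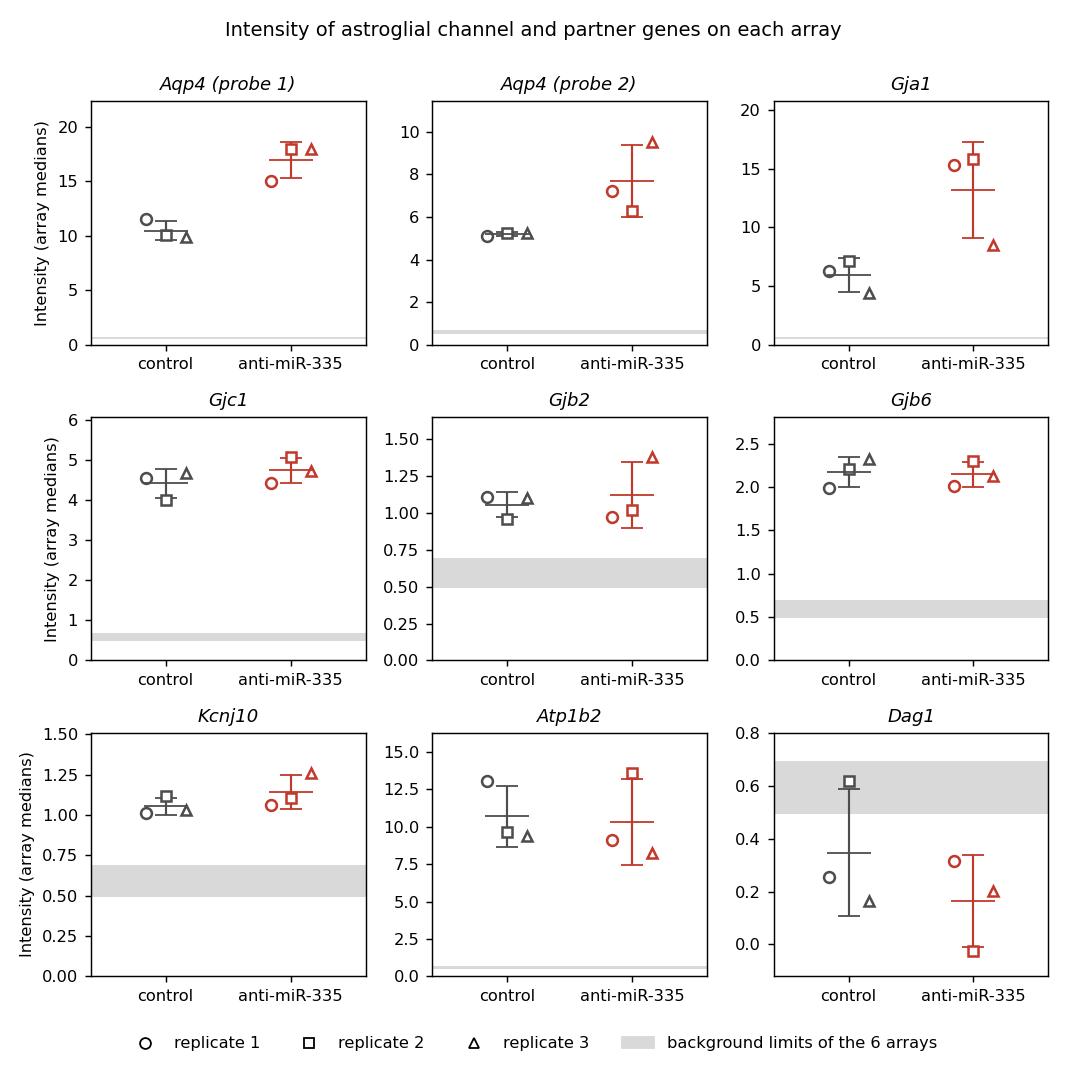
Intensity in units of each array's median for the 7 member probes and for Gjb6 and Kcnj10, in control (grey) and anti-miR-335 (red) cultures; symbols are replicates 1 to 3, wide bars the mean and whiskers the SD (n = 3), and the grey band spans the background limits of the 6 arrays. Both Aqp4 probes and Gja1 have no overlap between the groups, the other probes overlap, and every Dag1 value is below its own array's limit, control replicate 2 at 0.619 included.

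The other connexins did not separate the groups. Gjc1, which encodes a connexin found in early neural precursors, neurons and vessels, read 4.56, 3.999 and 4.68 in the controls and 4.43, 5.06 and 4.74 in the anti-miR-335 cultures. Its log2 difference was 0.11 ± 0.12 (SE), and the interval of 2 SE on each side ran from -0.13 to 0.34. Gjb2, a connexin of astrocytes and the meninges, read 1.11, 0.954 and 1.10 in the controls and 0.970, 1.015 and 1.37 in the treated cultures. Anti-miR-335 replicate 3 was the highest of the 6 arrays and anti-miR-335 replicate 1 lay below 2 of the 3 controls. The log2 difference was 0.07 ± 0.21 (SE), with the 2 SE interval from -0.34 to 0.49. Gjb6, the later astrocyte connexin, read 1.99, 2.20 and 2.32 in the controls against 2.01, 2.30 and 2.13. Its difference was -0.02 ± 0.14 (SE), with the 2 SE interval from -0.30 to 0.27. For these 3 connexins the intervals do not reach the difference of 1.13 measured for Gja1.

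Kcnj10, the inward rectifier channel that works beside Aqp4 in astrocytes, read 1.01, 1.12 and 1.03 in the controls and 1.06, 1.10 and 1.26 in the treated cultures. Only anti-miR-335 replicate 3 lay above the highest control. The log2 difference was 0.11 ± 0.18 (SE), with the 2 SE interval from -0.26 to 0.48. On the 2 arrays with scanner output the Kcnj10 spot was 2.14 and 2.15 times its local background, where the brighter Aqp4 spot was 14.7 and 15.9 times, so Kcnj10 was measured with less room above background.

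Atp1b2 read 13.1, 9.68 and 9.40 in control replicates 1, 2 and 3 and 9.13, 13.6 and 8.24 in the anti-miR-335 replicates. The highest array of each group was about as bright as the other, and the remaining 4 arrays lay close together. The log2 difference was -0.07 ± 0.19 (SE), and 0.08 without control replicate 1; it was also positive, at 0.07, without anti-miR-335 replicate 3, and fell to -0.29 without anti-miR-335 replicate 2. Dag1 was not above background on any array, with intensities between -0.0239 and 0.619, and its scanner spots carried the software's low-signal flag on both replicate 1 arrays. No fold is given for Dag1.

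Across the members by rule, 5 of the 6 probes above background had a positive difference and 1, Atp1b2, a negative one. Groups did not overlap, with anti-miR-335 higher, for 3 of the 7 probes (2 genes), where 7.59% of all tested probes did so. For 0 of the 7 was anti-miR-335 lower without overlap, against 7.37% of all tested probes. Since the members were chosen on this contrast, nothing is read from these shares. Over the 6 genes, with the brighter Aqp4 probe, the median log2 difference was 0.09 with the undetected Dag1 and 0.11 without it, against 0.05 over 18544 named genes, so the middle of the set lay near the middle of the array and Aqp4 and Gja1 lay far from it. Among all tested probes, the difference of Gja1 stood at percentile 99.7 and those of the Aqp4 probes at 97.2 and 94.6, while Gjc1, Gjb2 and Atp1b2 stood at 62.9, 58.3 and 38.1.

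**Figure D2:**
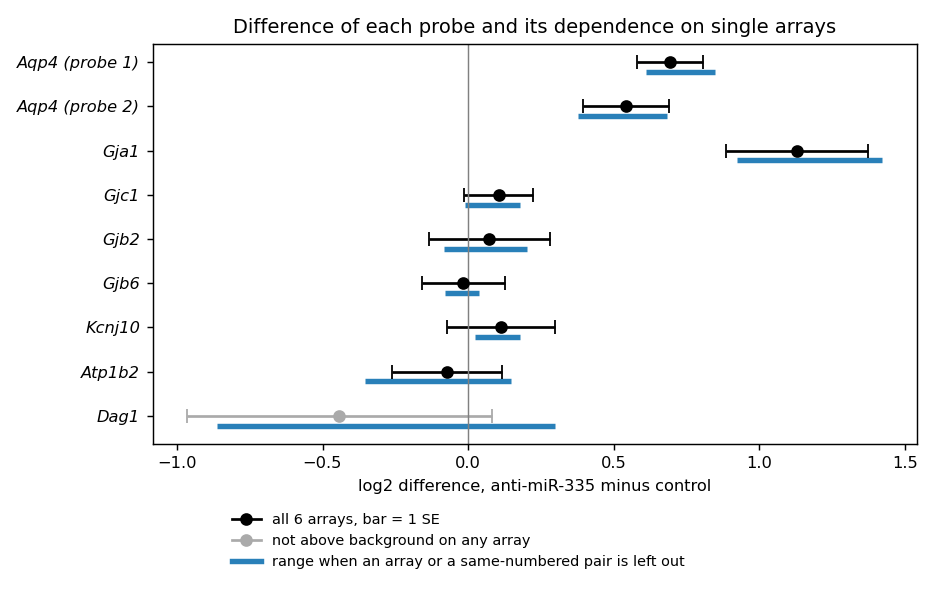
Log2 difference of each probe, anti-miR-335 minus control, as points with bars of 1 SE (3 arrays a group); the blue bars beneath span the values when 1 array or 1 same-numbered pair is left out. For Aqp4 and Gja1 the blue bars stay above 0, from 0.38 upward, which groups without overlap fix in advance. That of Kcnj10, from 0.02 to 0.18, also stays above 0, and those of Gjc1, Gjb2, Gjb6 and Atp1b2 cross it. Dag1, in grey, was not above background.

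**Figure D3:**
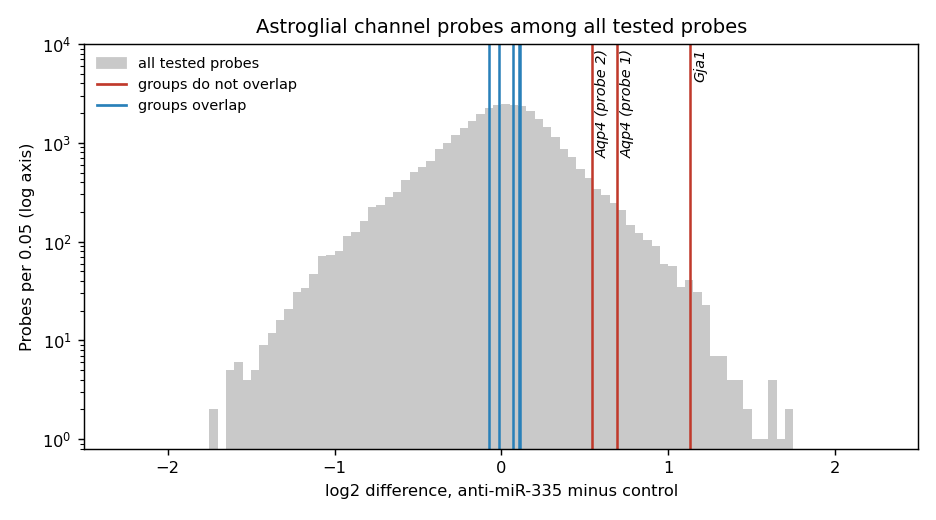
Log2 differences of all 34847 tested probes as a histogram in steps of 0.05 with a log axis for the number of probes, and the 8 probes of Aqp4, Gja1, Gjc1, Gjb2, Gjb6, Kcnj10 and Atp1b2 as vertical lines; Dag1 is left out. The red lines, Gja1 at 1.13 and Aqp4 at 0.69 and 0.54, lie in the right flank, and the blue lines lie near the centre.

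Spot values of the replicate 1 pair showed how much signal stood behind the readings. The Gja1 spot rose above local background by 382 scanner units in control replicate 1 and by 1003 in anti-miR-335 replicate 1. The brighter Aqp4 spot stood 701 and 982 units above background, and the second Aqp4 spot 310 and 473. Pixel noise, as the standard error of the spot's mean, came to between 5.17% and 6.05% of the signal for these 6 spots, a noise that leaves out all variation between cultures and arrays. For this pair alone the log2 difference was 0.38 on the brighter Aqp4 probe, less than the 0.69 over all arrays, with control replicate 1 the brightest control.

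By the likeness of the log2 profile over all 6 arrays, among 11473 named probes above background on every array, the genes nearest to the brighter Aqp4 probe were Sarm1, Stam, Pdxp, Pdgfra and Tmem14c, with Pearson r from 0.995 to 0.998. Sarm1, an NAD-cleaving enzyme of axon degeneration, read 5.52, 4.90 and 4.61 in the controls and 6.95, 8.36 and 8.54 in the treated cultures. Pdgfra, the receptor of oligodendrocyte precursors, read 9.64, 7.01 and 7.21 against 13.2, 17.6 and 17.0, with a second probe at a log2 difference of 0.29 against 1.01. The genes nearest to Gja1 were Septin6, Dnase2a, Slc30a6, Ppp3r1 and Atraid, with r from 0.981 to 0.993. Septin6, a cytoskeletal GTP-binding protein, read 1.85, 1.92 and 1.62 in the controls and 2.32, 2.42 and 2.05 in the treated cultures, a far smaller step than that of Gja1. With 6 arrays, 185 probes correlated with Aqp4 above 0.95 and 30 with Gja1, so these names describe profile shape only. The profiles of Aqp4 and Gja1 correlated with each other at 0.78 on the brighter Aqp4 probe, and at -0.15 once group means were removed. On the second Aqp4 probe these values were 0.47 and -0.79.

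The wider families of these genes were measured with 105 genes in 8 lists, 1 probe per gene, the brightest. None of the 105 passed an adjusted p of 0.05 by limma, and 10 had an unadjusted p under 0.05, where 1844 of all 18544 named genes did. Over all named genes, 1758 were higher and 1162 lower without overlap, the shares to set beside the count of each list. In the gap junction family, 18 of 19 other connexins and pannexins were measured, 10 of them above background on at least 3 arrays, with a median log2 difference of 0.09 and with 2 higher and 1 lower without overlap. The median fell to 0.03 without control replicate 1, to 0.02 without control replicate 2 and to 0.01 with the floor at the 20th percentile. Gja4, a connexin of vessels, was the lower one, at 2.03, 1.88 and 2.04 in the controls against 1.67, 1.65 and 1.74 (limma adjusted p = 0.662). Gjc3, a connexin of the oligodendrocyte lineage, read 1.65, 1.03 and 1.149 in the controls and 1.90, 2.14 and 2.05 in the treated cultures, without overlap (log2 difference 0.70 ± 0.20 SE; limma adjusted p = 0.418). Panx2, a neural pannexin, differed by 0.39 ± 0.17 (SE; limma adjusted p = 0.550) with groups that overlapped. Of the 9 measured junction scaffold and trafficking genes, median 0.11, Ctnnb1 and Cnst had the smallest p (limma adjusted p = 0.563 and 0.614). Ctnnb1, the beta-catenin gene, lay at 30.9 ± 3.10 in the treated cultures against 23.9 ± 7.41 in the controls (SD, n = 3), with control replicate 1 at 32.0 inside the treated range. Without control replicate 1 the median of this list was 0.32.

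Of the 11 other aquaporins measured, 6 were not above background on any array. The median difference was 0.03, and it turned to -0.26 without control replicate 3. Aqp5, an epithelial water channel, read 2.93, 3.26 and 3.08 in the controls and 2.60, 2.498 and 2.56 in the treated cultures, so its groups also did not overlap, in the direction opposite to Aqp4 (log2 difference -0.27 ± 0.12 SE; limma adjusted p = 0.550). Aqp3, a channel for water and glycerol, was above background on 3 arrays only, and its groups overlapped (limma adjusted p = 0.669).

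Of the dystrophin complex and the ligands of dystroglycan, 19 genes were measured, and Sgcb and Lama1 had the smallest p among those above background. Sgcb, a sarcoglycan gene, read 9.03, 8.86 and 9.003 against 11.1, 12.5 and 10.96, a difference of 0.36 ± 0.10 (SE; limma adjusted p = 0.414). The controls of Sgcb lay close together (SD 0.0911, n = 3) and every treated array lay above them. Lama1, a laminin chain gene, read 2.502, 1.54 and 1.53 in the controls and 1.995, 2.41 and 2.30 in the treated cultures, with control replicate 1 the highest of the 6 arrays (0.30 ± 0.20 SE; limma adjusted p = 0.691). Its other probe was above background on 1 array only, with a difference of -1.01 ± 0.69 (log2, SE). Of the 19 genes, 2 were higher and 1 lower without overlap, and the lower one, Sntb1, was not above background on any array. The median over the 19 was 0.07. Without control replicate 1 this median was 0.22. Leaving out other arrays took it as low as -0.05, without the replicate 3 pair. Of 18 glycosylation genes that equip dystroglycan to bind laminin, 15 were measured, and their median was 0.07, or 0.13 without control replicate 1 and 0.01 after quantile normalization. Rxylt1 and Pomt2 had the smallest p, at 0.24 ± 0.12 and 0.21 ± 0.11 (log2, SE; limma adjusted p = 0.578 and 0.615), both without overlap.

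The other sodium pump subunits had a median of 0.00 over 10 measured genes, with 2 higher and 1, Fxyd2, lower without overlap. Without anti-miR-335 replicate 3 this median was 0.11, and without anti-miR-335 replicate 2 it was -0.05. Atp1b1, the beta subunit common in neurons, read 6.91, 6.75 and 6.55 in the controls and 8.84, 9.37 and 8.10 in the treated cultures, unlike Atp1b2 (log2 difference 0.38 ± 0.10 SE; limma adjusted p = 0.414). Fxyd1, phospholemman, a regulator of the pump that is present at endfeet, read 6.88, 6.65 and 5.60 against 7.32, 10.5 and 12.1. Its lowest treated array was close to the highest control (0.62 ± 0.17 SE; limma adjusted p = 0.415).

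Of the 14 other inward rectifier channels, 5 were not above background on any array and the median was 0.00. Kcnj16, the usual partner subunit of Kcnj10, overlapped between groups at 39.0, 24.9 and 27.6 in the controls against 33.5, 35.6 and 31.4. Kcnj3, a G protein-gated channel gene, lay at 5.21 ± 0.433 in the treated cultures against 4.49 ± 0.342 in the controls (SD, n = 3), without overlap (limma adjusted p = 0.630). Kcnj13 was above background on all 3 controls and on no anti-miR-335 array, at least 1.4-fold higher in the controls (limma adjusted p = 0.415). That fold is a bound, taken against the lowest signal above background on each treated array. The genes of astrocyte volume regulation had a median of 0.05 over 9. That median was 0.24 without anti-miR-335 replicate 3, -0.11 without anti-miR-335 replicate 2 and -0.05 with the floor at the 20th percentile. Among them Slc4a4, a sodium bicarbonate cotransporter, read 66.6, 53.5 and 54.5 in the controls and 69.7, 68.0 and 73.0 in the treated cultures. Its log2 difference was 0.28 ± 0.12 (SE, limma adjusted p = 0.533). Its second bright probe gave 0.24 ± 0.12, and a dim one, above background on 3 arrays, gave 0.04 ± 0.26. Hepacam, a glial adhesion molecule (0.20 ± 0.13 SE, limma adjusted p = 0.680), and Mlc1, its partner, both overlapped between the groups. A dimmer Hepacam probe, above background on all 6 arrays, gave 0.43 ± 0.23 (log2, SE) and also overlapped.

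**Figure D4:**
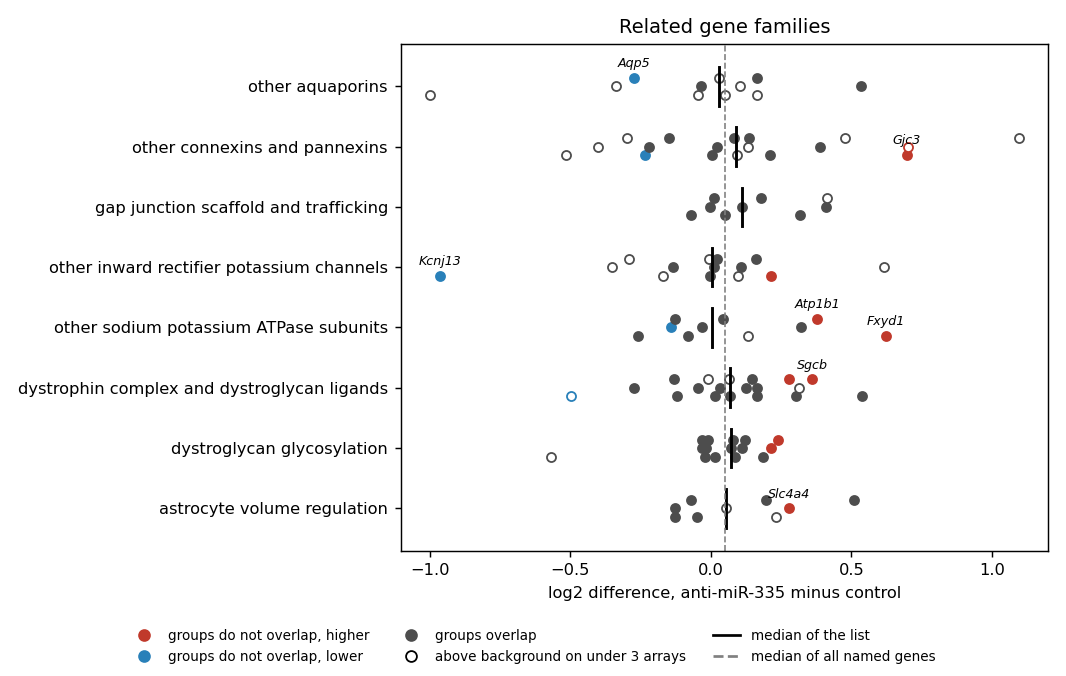
Log2 difference of each gene in 8 related families (horizontal axis), coloured where the values of the 3 control and 3 anti-miR-335 arrays do not overlap; open points were above background on under 3 arrays, black bars are list medians and the dashed line is the median over 18544 named genes, 0.05. Medians lie between 0.00 and 0.11, and Fxyd1 and Gjc3 are among the genes to the right.

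Cell type markers were read beside these values, since in bulk cultures fewer cells of a type and less RNA per cell cannot be told apart. Astrocyte markers were above background on at least 3 arrays for 11 of 11, and their summed intensity ran from 868 to 970 in the controls and from 800 to 951 in the treated cultures. Apoe made up much of that sum, and over the single markers the median log2 difference was 0.16, with 7 of 11 positive and none without overlap. Radial glia markers were above background for 10 of 11, Hes1 being below it on every array, and their sums were 410 to 447 against 460 to 490, without overlap. Oligodendrocyte lineage markers were above background for 8 of 10, without Mag and Mog, with sums of 103 to 138 against 102 to 131. Cnp and Olig1 made up much of these sums. Olig1 read 1.93, 24.3 and 25.9 in control replicates 1, 2 and 3, and 18.6, 26.8 and 1.61 in the anti-miR-335 replicates. Olig2 was also lowest on control replicate 1 and anti-miR-335 replicate 3. Over the single markers the median log2 difference was -0.16, with 3 of 10 positive. Among those 3, Pdgfra, at a log2 difference of 1.01 ± 0.15 (SE; limma adjusted p = 0.333), and Sox10, at 0.38 ± 0.13 (SE; limma adjusted p = 0.486), were higher without overlap. Of 12 leptomeningeal markers, of cells that also carry Gja1 and Gjb2, 8 were not above background on any array, Col1a1, Col1a2, Col3a1, Dcn and Lum among them. The other 4 were above it on at least 3 arrays, and of these Foxc1 and Ptgds on all 6. The sums of the list were 118 to 133 against 92.3 to 121. Ptgds made up most of them, at 119, 109 and 124 in the controls and 111, 108 and 81.4 in the treated cultures. Endothelial markers were above background for 4 of 9 (sums 3.91 to 5.15 against 3.29 to 5.70), without Cdh5, Flt1 and Pecam1, and choroid plexus markers for 2 of 6, without Ttr (sums 2.66 to 3.86 against 2.90 to 3.23). Neuron markers were above background for 7 of 9 (sums 12.4 to 16.3 against 15.3 to 19.3), ependymal markers for 3 of 6 (21.3 to 31.3 against 22.9 to 25.3), markers of microglia and macrophages for 3 of 12 (14.7 to 15.4 against 12.6 to 14.6), with Csf1r, Itgam and Ptprc on no array, and erythroid markers for 0 of 4 (1.37 to 1.64 against 1.19 to 1.47). The sums of radial glia and of microglia did not overlap between the groups, the latter narrowly, at 14.69 for the lowest control and 14.63 for the highest treated array. Of the microglial markers, 7 of 12 were below background on every array. Trem2, above background on all 6 arrays, was lower without overlap, at 4.64, 4.85 and 5.08 against 3.42, 3.19 and 3.21. Its log2 difference was -0.57, and that of Cd68 was 0.02. Cx3cr1, above background on 5 arrays, was higher without overlap, at 0.58. The median over these 12 was 0.00, with 6 positive. Among single markers above background on all 6 arrays, Fabp7, Hes5 and the neuronal gene Dcx, at a log2 difference of 1.02, were also higher without overlap. Fabp7, at means of 90.1 in the controls and 110 in the treated cultures, weighed heavily in the radial glia sum. The median was 0.14 over the radial glia markers, 9 of 11 positive, with Nes at -0.15. Over the neuron markers it was 0.28, 7 of 9 positive, with Neurod1 at -0.47 and Syt1 at -0.11. The part of cell composition in the Aqp4 and Gja1 differences was not tested.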

How the data were processed

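RNA of 6 neurosphere cultures was labelled from 2 µg of total RNA and hybridised for 18 h to CodeLink arrays, per the labels' protocols. The intensities deposited by the authors are linear and scaled to each array's median, per the labels; CodeLink Expression Analysis 4.1.0.29054 is named in the file headers of the 2 arrays with scanner output (replicate 1 of each group), where 35976 and 36032 deposited values equalled the scanner's within 0.0001. Local background subtraction was read from the scanner columns. Probe sequences were not analysed here. No batch is given for the other 4 arrays.

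Before taking log2, a floor of 0.163, the 5th percentile of the positive values, was set. The comparison used lmFit and eBayes of limma 3.58.1 (R 4.3.3), with an intensity trend, no covariate and two-sided p-values, and Benjamini-Hochberg adjustment over 34847 probes with at least 2 values per group; the code was tested on simulated data. SEs are limma's moderated ones. The 3 arrays per group limit the precision.

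Symbols came from the platform annotation, joined to RefSeq (GRCm38.p6), for 21615 probes. Of the unnamed probes, 499 were named by the scanner's accession and 120 by its description. These names served the related and marker lists, the comparison over all named genes, and Gjb6 and Kcnj10. They were not used for the members by rule. A gene's main probe is its brightest. Every member probe is reported. From each related list the rule names genes that passed, otherwise the 2 of smallest p above background on at least 3 arrays. For Aqp4 and Gja1 it names the 5 nearest profiles. Kcnj16, Mlc1, Gja4, Fxyd2, Sntb1 and the single cell type markers were added after their values were seen. The members and lists were chosen with earlier results of these data known. 1 gene of the related lists is not reported here and was left out of their counts.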

Additional observations from a re-analysis of the deposited data

How the results depend on the processing

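The count of 0 probes past the threshold stayed at 0 with both other floors, without dim probes, with no intensity trend and with the replicate block. It was 1 after quantile normalization, 5 with array weights and 474 with array weights estimated over complete probes only, a setting added after the data were seen. Leaving out arrays or same-numbered pairs gave 0 to 1571, where control replicate 1 left out gave 1100, both replicate 1 arrays left out 1571 and anti-miR-335 replicate 1 left out 1. The cause was not tested. Same-numbered arrays deviated from their group means with correlations of -0.23, 0.04 and -0.26 over 17843 probes, and no array correlated best with its own number, so the arrays were left unpaired. Of the 7 member probes, 3 to 4 were higher without overlap over the left-out cases, and 0 to 1 lower. Leaving out arrays cannot create overlap, so these counts could only stay or rise. The members' median ranged from 0.06 to 0.19 over those cases. Of 272 alternative values of single probes and related lists, 251 moved by less than the replicate spread. Leaving out 1 array cannot move a single probe beyond that spread, and other floors leave bright probes unchanged. Many of the 251 were thus fixed in advance, and the count is no measure of robustness. The alternative values of Aqp4 and Gja1 stayed positive under every setting run. Their groups did not overlap, so leaving out or reweighting arrays could not change this sign, and it adds no support. Those of Kcnj10 also stayed positive, while those of Gjc1, Gjb2, Gjb6, Atp1b2 and the undetected Dag1 changed sign in some settings. Signals near background, Gjb2 and Kcnj10 among them, limit what 3 arrays a group can show.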

Other observations

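Of the connexins near the background limit, 2 had an unadjusted p under 0.05 without passing the adjusted threshold. Gjd2, the main connexin of electrical synapses between neurons, read 0.267, 0.214 and 0.442 in the controls and 0.392, 0.846 and 0.745 in the anti-miR-335 cultures, above background on 2 of 6 arrays and with groups that overlapped (limma adjusted p = 0.490). Gjb1, a connexin of myelinating glia, read 0.316, 0.502 and 0.552 against 0.649, 0.881 and 0.660, also above background on 2 arrays (limma adjusted p = 0.535). Dmd, the dystrophin gene, spread widely within the controls, at 6.73, 4.25 and 2.35 in replicates 1, 2 and 3, while its treated values of 4.54, 4.46 and 4.65 lay within a narrow band between them. The genes of this paragraph were singled out after their values were seen.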
